A study of Mus musculus with 12 samples.

Results

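The potassium channel genes are the protein-coding mouse genes whose symbol starts with Kcn. The annotation holds 94 of them. In 80, 6 or more of the 12 libraries had 5 counts or more, and these were tested, among 18847 tested genes of 48709 in the files. RNA was sequenced from primary hippocampal cultures of CD1 mouse embryos at embryonic day 17, which hold neurons and glia. At day 10 in vitro the 6 mimic samples received lipid nanoparticles with a synthetic miR-148a-3p, and the 6 control samples received lipid nanoparticles with a negative control oligonucleotide; both groups were harvested 48 h later, at day 12. Each culture preparation pooled hippocampi of several embryos, and the labels do not say whether samples came from separate preparations, so p-values measure only the spread between these samples. The comparison addresses which potassium channel transcripts differed when this microRNA was raised.

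Potassium channels let potassium leave or enter cells along its gradient and so set the resting potential, shape the action potential and clear potassium around neurons. Voltage-gated subunits (Kcna to Kcnd, Kcnq, Kcnh) assemble as tetramers and repolarise the membrane. Inward rectifiers (Kcnj) and 2-pore-domain channels (Kcnk) act near rest, calcium-activated channels couple calcium entry to repolarisation, and accessory subunits alter gating or trafficking. In the hippocampus most of these genes are used by neurons, while Kcnj10 and Kcnj16 are mainly known from astrocytes and cells of the oligodendrocyte lineage.

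Library totals ranged from 20018234 to 37149112 counts. Among control libraries, replicate 1 lay furthest from controls 3 to 6, followed by replicate 2. Replicate 1 was the shallowest and held the highest value of its group for 33 of the 80 tested genes (7 to 12 in each of the other control libraries). The chi-square per degree of freedom between libraries was 25.7 to 42.9 for replicate 1 and 10.4 to 22.8 for replicate 2 against controls 3 to 6, 8.88 between the 2, and 1.78 to 9.39 among controls 3 to 6; alternative fits left out replicate 1 alone or both. Without replicate 1, 25 potassium channel genes were called higher and 9 lower, of 79 tested, and without both, 26 and 8. The neuron markers Map2, Rbfox3 and Syn1 were detected in every library, as were the astrocyte markers Slc1a3 and Gfap. The 14 genes that were not tested were Kcna7, Kcna10, Kcne1, Kcne3, Kcne4, Kcnj1, Kcnj5, Kcnj8, Kcnj14, Kcnk15, Kcnk16, Kcnk18, Kcnmb3 and Kcnv2, with at most 8 counts in any library. Just outside the rule, Kcnj5 averaged 3.58 counts, and just inside it, Kcnk7 averaged 4.00 counts.

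Among the 80 tested genes, 28 differed between mimic and control (35.0%; edgeR quasi-likelihood test, Benjamini-Hochberg adjusted p under 0.05), against 22.2% of all tested genes and 26.1% of tested protein-coding genes. Of these, 21 were higher in mimic (26.2%, against 11.5% of all tested and 13.5% of protein-coding genes) and 7 were lower (8.75%, against 10.7% and 12.6%). When libraries were scaled to the neuron markers instead, the split was 26 higher and 4 lower, and that of all tested genes moved from 2163 higher of 4182 called to 3207 of 4396. The 2 groups of libraries did not overlap for 17 of the 80 genes, 13 higher and 4 lower (21.2%, against 13.3% of all tested genes, 7.43% higher and 5.83% lower). The changes were small: the median size among called potassium channel genes was 0.29 on the log2 scale, close to the 0.30 of all called genes, and the median log2 fold change over all 80 was 0.035 (0.07 without control replicate 1), against -0.012 over all tested genes. Among the 29 members averaging at least 1000 counts, 10 were higher and 2 lower (34.5% and 6.90%, against 13.7% and 13.3% of all tested genes at that count level). Between 100 and 1000 counts, 10 of 29 were higher and 3 lower (34.5% and 10.3%, against 16.6% and 13.3%), and under 100 counts, 1 of 22 was higher and 2 lower (4.55% and 9.09%, against 4.54% and 5.76%).

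**Figure D1:**
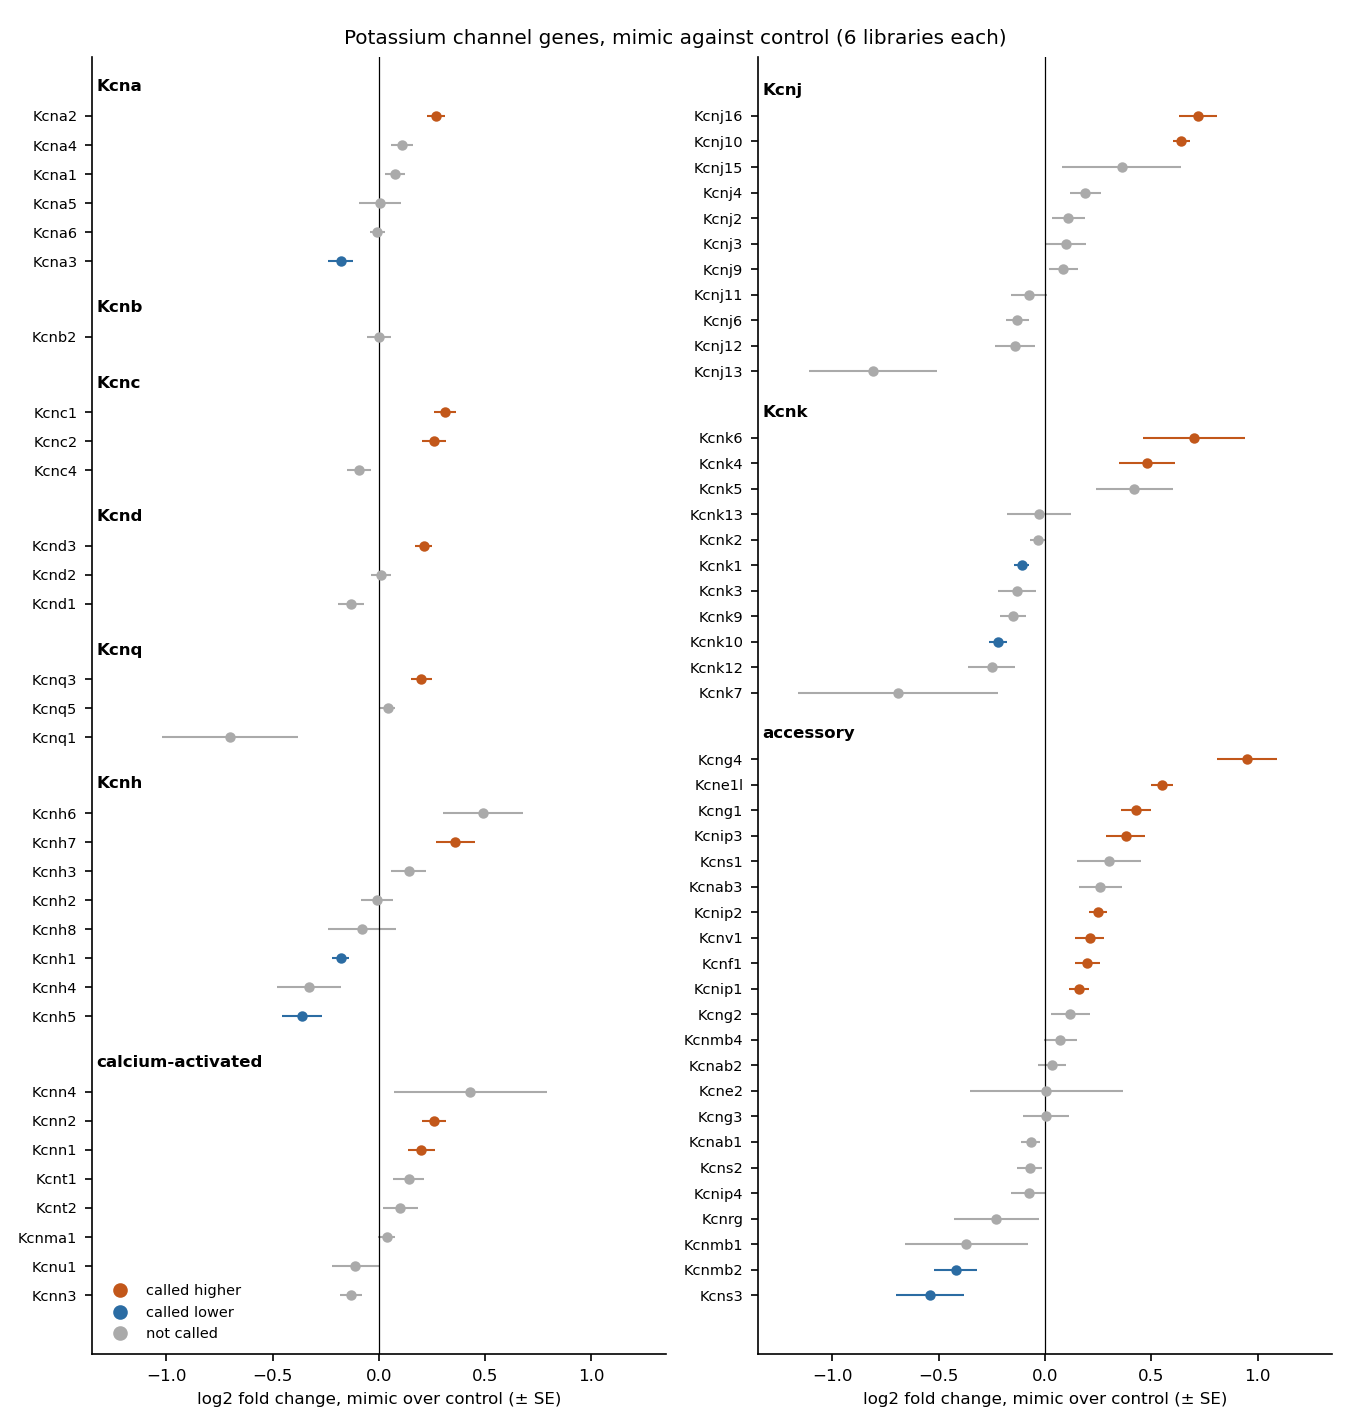
Log2 fold change of mimic over control (x axis, ± SE) for 76 of the 80 tested potassium channel genes, ordered by subfamily; orange points were called higher, blue points lower and grey points were not called. Orange points outnumber blue ones 20 to 7, and the widest error bars belong to genes with few counts, such as Kcnk7.

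Because these are bulk cultures, fewer cells of a type and less RNA per cell cannot be told apart. Levels below are CPM, each count divided by its library total after adjustment for composition (TMM), and are given as the lowest, median and highest of the 6 libraries of a group.

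The inward rectifiers Kcnj10 and Kcnj16 rose together. Kcnj10 encodes Kir4.1, the main potassium conductance of astrocytes, and had the highest level per kilobase of exon of all potassium channel genes in control (38.2 CPM per kb). Its level was 194, 207 and 221 CPM in control and 306, 320 and 341 CPM in mimic, so every mimic library exceeded every control library. The log2 fold change was 0.64 ± 0.040 (SE; edgeR adjusted p = 4.86e-09), a rise of 56.1%. Kcnj16 encodes Kir5.1, which joins Kir4.1 in mixed channels. Kcnj16 measured 8.24, 8.91 and 10.4 CPM in control and 11.8, 15.1 and 17.7 CPM in mimic, again without overlap (log2 fold change 0.72 ± 0.088, edgeR adjusted p = 1.11e-05). Both calls held in all 21 alternative fits. Kcnj10 lies at chr1:172341210-172374085 beside Kcnj9 (GRCm38), and Kcnj16 at chr11:110968033-111027968 beside Kcnj2; neither neighbour was called (log2 fold change 0.087 ± 0.069 for Kcnj9 and 0.11 ± 0.078 for Kcnj2).

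The other 9 tested Kcnj genes did not pass the test. They include Kcnj3 and Kcnj9, subunits of G-protein-gated channels, with log2 fold changes of 0.10 ± 0.095 and 0.087 ± 0.069, and their partner Kcnj6 at -0.13 ± 0.053. Kcnj4, which encodes the neuronal inward rectifier Kir2.3, measured 0.19 ± 0.073 (edgeR adjusted p = 0.0699). Kcnj13 had the lowest fold change of the family (-0.81 ± 0.30) but averaged 9.42 counts and shares 623 exon bases with Gigyf2, a gene of 3392.6 counts.

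Glial markers moved with the 2 called rectifiers. Of 10 astrocyte markers, 7 were higher and 1 was lower, where 11.5% of all tested genes were higher and 10.7% lower, and their summed level ranged from 5176 to 5694 CPM in control and from 6278 to 6710 CPM in mimic. The glutamate transporter Slc1a3 (log2 fold change 0.99 ± 0.038) and glutamine synthetase, Glul (0.74 ± 0.045), were among those that rose, whereas the intermediate filament gene Gfap fell (-0.90 ± 0.078). The water channel gene Aqp4, which works at the same astrocyte endfeet as Kir4.1, was not called (-0.17 ± 0.070). In the oligodendrocyte lineage list, 5 of 9 genes were higher and 1 was lower (beside the same shares of all tested genes), with a summed level of 393 to 681 CPM in control and 768 to 963 CPM in mimic. All 8 proliferation genes were higher, against 11.5% of all tested genes (215 to 249 CPM in control, 413 to 442 CPM in mimic). No marker of these 3 lists was at 0, and their part in the rise of Kcnj10 and Kcnj16 was not tested.

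**Figure D2:**
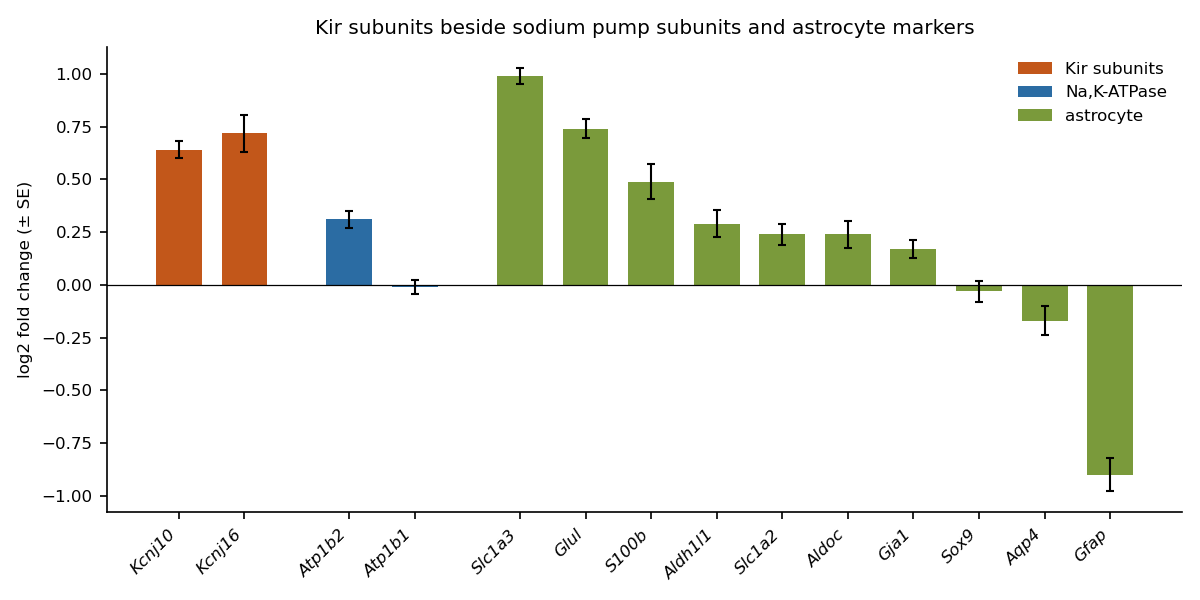
Log2 fold change of mimic over control (y axis, bars, ± SE) for Kcnj10 and Kcnj16, for 2 β subunits of the sodium-potassium pump and for the 10 astrocyte markers. The 2 rectifiers lie between Slc1a3 and most other astrocyte markers, while Gfap lies at -0.90.

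Among voltage-gated channels of the Kcna to Kcnd groups, 4 of 15 genes rose and 1 fell, beside 11.5% higher and 10.7% lower of all tested genes (13.5% and 12.6% of the protein-coding ones). Counts in groups this small are given as a description, here and for the subfamilies that follow. Kcna2 encodes Kv1.2, an axonal delayed rectifier. It rose from 89.1, 102 and 107 CPM to 116, 122 and 125 CPM (log2 fold change 0.27 ± 0.042, edgeR adjusted p = 0.000139), and the groups did not overlap. Its common partner Kcna1, the Kcna gene with the highest level per kilobase, measured 0.076 ± 0.049 and was not called (adjusted p = 0.307). Kcna3 fell slightly, from 12.8, 14.6 and 15.7 CPM to 11.9, 12.9 and 13.4 CPM (-0.18 ± 0.058, adjusted p = 0.0299), with overlap between the groups and with the call lost in 11 of 21 alternative fits.

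Kcnc1 and Kcnc2 encode Kv3 subunits, known for brief action potentials in fast-spiking cells. Kcnc1 rose from 100, 106 and 127 CPM to 127, 132 and 146 CPM (log2 fold change 0.31 ± 0.053, edgeR adjusted p = 0.000342), with control replicate 1 as the highest control library. Kcnc2 rose from 15.5, 16.7 and 18.9 CPM to 18.2, 20.7 and 21.1 CPM (0.26 ± 0.057, adjusted p = 0.00290), with overlap. Kcnc4 measured -0.093 ± 0.056 and was not called. Of 10 interneuron markers, 1 was higher and 3 were lower, beside 11.5% higher and 10.7% lower of all tested genes, with a summed level of 740 to 899 CPM in control and 695 to 753 CPM in mimic; their part in the rise of Kcnc1 and Kcnc2 was not tested.

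Of the Kv4 genes, which carry the dendritic A-type current, Kcnd3 rose and Kcnd2 did not pass the test. Kcnd3 measured 172, 191 and 198 CPM in control and 206, 218 and 223 CPM in mimic (log2 fold change 0.21 ± 0.040, edgeR adjusted p = 0.000926), without overlap. Kcnd2 was at 0.011 ± 0.048 (adjusted p = 0.912). Kcnb2, which encodes a somatic delayed rectifier, had a log2 fold change near 0, at 0.0005 ± 0.058.

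Kcnq3 and Kcnq5 encode subunits of the M-current, which restrains repetitive firing. Kcnq3 rose from 195, 235 and 252 CPM to 256, 261 and 280 CPM (log2 fold change 0.20 ± 0.050, edgeR adjusted p = 0.00780), without overlap; without control replicates 1 and 2, its lowest controls, the value was 0.13 ± 0.030 (adjusted p = 0.00120). Kcnq5 was not called (0.041 ± 0.036), nor was Kcnq1, known from the slow delayed rectifier of the heart, which averaged 8.67 counts and shares exon positions with the antisense gene Kcnq1ot1, at 722.8 counts.

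In the Kcnh family, Kcnh7 rose and Kcnh1 and Kcnh5 fell. Kcnh1 encodes the ether-à-go-go channel Kv10.1 and Kcnh5 its close relative Kv10.2. Kcnh1 measured 39.0, 42.5 and 44.6 CPM in control and 35.5, 37.5 and 38.7 CPM in mimic, without overlap (log2 fold change -0.18 ± 0.040, edgeR adjusted p = 0.00263); scaled to the neuron markers it was -0.13 ± 0.045 and just missed the threshold (adjusted p = 0.0503). Kcnh5 fell from 3.65, 4.01 and 4.55 CPM to 2.62, 3.10 and 3.91 CPM (-0.36 ± 0.094, adjusted p = 0.00944). Kcnh7, an ERG-type subunit, rose from 16.7, 22.0 and 24.9 CPM to a median of 27.1 and a highest value of 30.6 CPM, with its lowest mimic library just above the highest control (0.36 ± 0.092, adjusted p = 0.00985). Control replicates 1 and 2 were its lowest controls (16.7 and 17.3 CPM), and without them the log2 fold change was 0.23 ± 0.059 (edgeR adjusted p = 0.00508). Kcnh7 shares 696 exon bases with Gca on the other strand, which averaged 565.2 counts and was not called (0.01). Kcnh3, the Kcnh gene with the highest level per kilobase, measured 0.14 ± 0.083 with all libraries and 0.24 ± 0.041 without control replicate 1, where it was called (adjusted p = 0.000180).

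Of 8 calcium-activated channel genes, 2 rose, both encoding small-conductance channels of the SK type, where 11.5% of all tested genes were higher. Kcnn2 rose from 48.5, 53.6 and 63.8 CPM to 60.1, 64.7 and 70.3 CPM (log2 fold change 0.26 ± 0.056, edgeR adjusted p = 0.00278). Kcnn1 rose from 24.2, 25.9 and 33.2 CPM to 29.8, 30.8 and 31.4 CPM (0.20 ± 0.062, adjusted p = 0.0293); the groups overlapped for both genes. The Kcnn1 call was lost in 8 of 21 alternative fits. Kcnn3 measured -0.13 ± 0.052 (adjusted p = 0.0755), and Kcnma1, the pore of the large-conductance BK channel, measured 0.038 ± 0.040 and was not called.

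Kcnk genes encode the background, or leak, channels. Kcnk1 encodes TWIK1 and had the highest level per kilobase of its family. It fell from 71.4, 72.8 and 79.5 CPM to 66.9, 68.6 and 70.4 CPM (log2 fold change -0.11 ± 0.035, edgeR adjusted p = 0.0334), without overlap, but 10 of 21 alternative fits did not call it, with values of -0.072 without control replicates 1 and 2 and -0.055 scaled to the neuron markers. Kcnk10, which encodes the mechano-gated and lipid-gated TREK2, fell from 27.6, 28.8 and 30.4 CPM to 23.2, 25.4 and 25.9 CPM (-0.22 ± 0.042, adjusted p = 0.00109), also without overlap. Kcnk4, which encodes the related channel TRAAK, rose from 2.26, 2.94 and 4.54 CPM to 3.55, 4.13 and 4.77 CPM (0.48 ± 0.13, adjusted p = 0.0131). Kcnk4 shares 587 exon bases on its own strand with Catsperz, a gene of 33.2 counts that was higher as well (0.81). Kcnk2, which encodes TREK1, measured -0.035 ± 0.037 and was not called. Kcnk6 was called higher at a mean of 10.5 counts (0.70 ± 0.24, adjusted p = 0.0457), and 15 of 21 alternative fits lost that call.

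**Figure D3:**
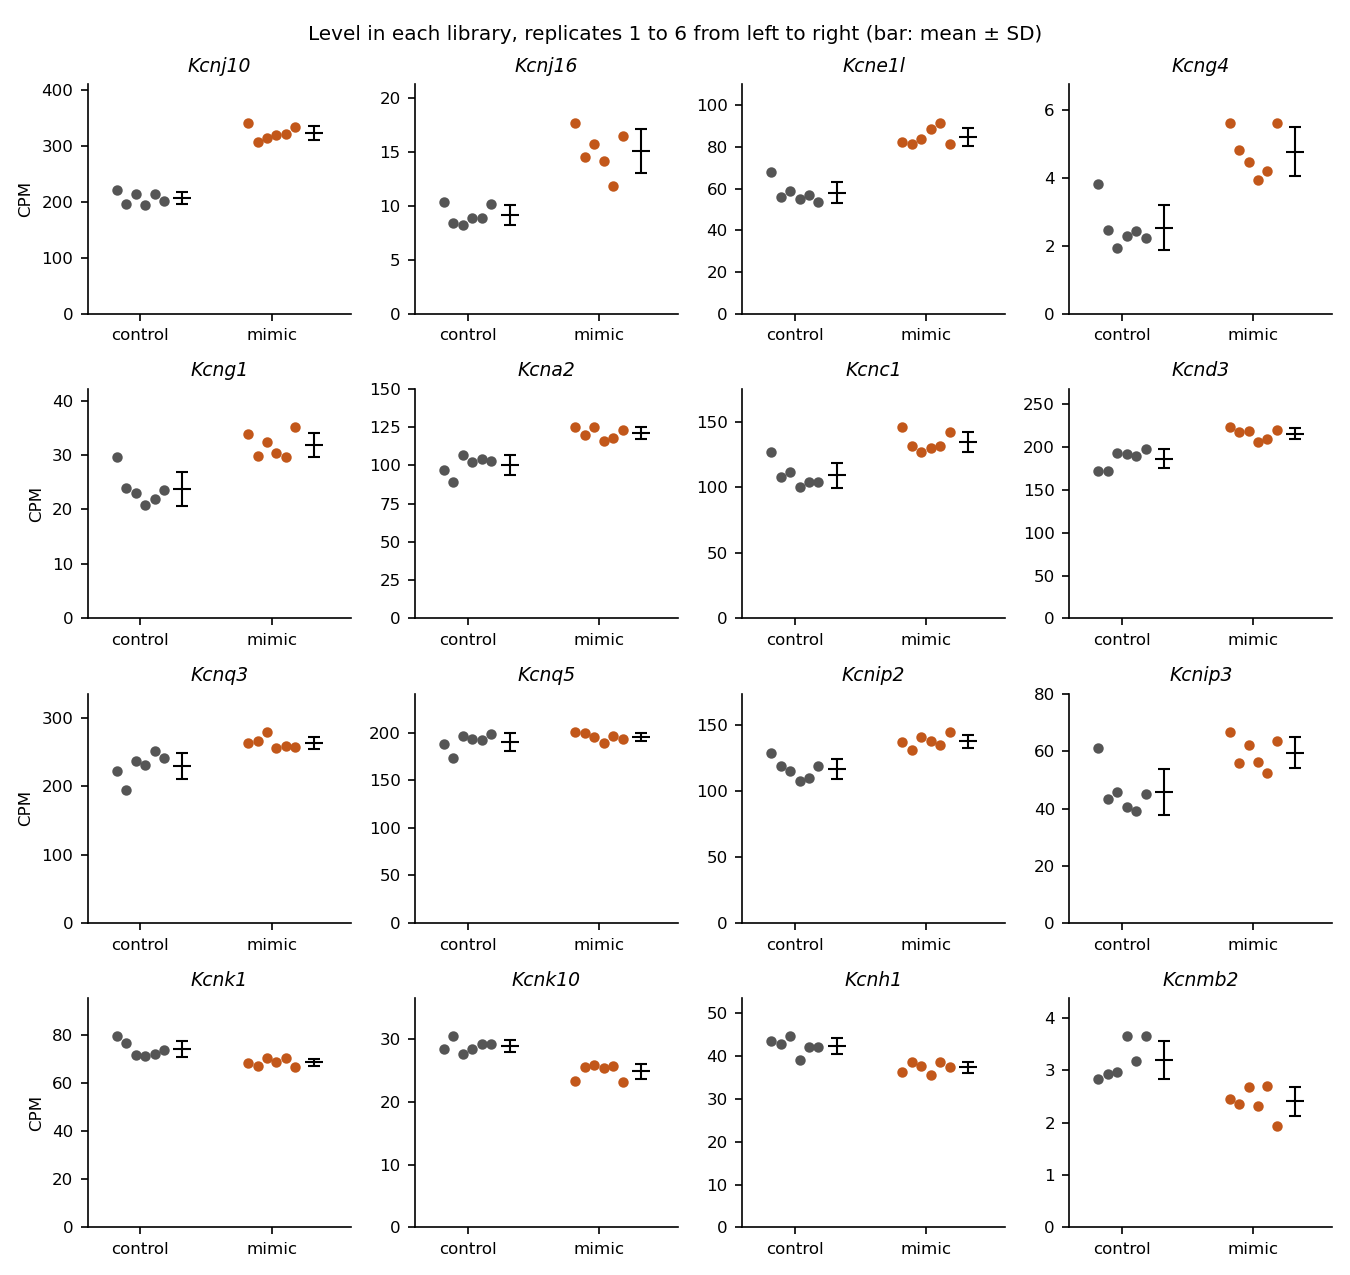
Level in each library (y axis, CPM, from 0) for 16 potassium channel genes, with control in grey and mimic in orange, replicates 1 to 6 from left to right, and the mean ± SD beside each group. Kcnj10, Kcnj16 and Kcne1l show gaps between the groups, Kcng4 barely clears (highest control 3.84 CPM, lowest mimic 3.94 CPM), Kcnq5 overlaps, and control replicate 1 lies above the other controls for Kcng4, Kcng1 and Kcnip3.

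Accessory and silent subunits held 8 of the 21 genes that rose and 2 of the 7 that fell, among 22 tested, where 11.5% of all tested genes were higher and 10.7% lower. Of the 4 KChIP genes, whose products bind Kv4 channels and raise their surface level, 3 rose, a group too small to read against that share. Kcnip2 went from 108, 117 and 129 CPM to 131, 137 and 145 CPM (log2 fold change 0.25 ± 0.042, edgeR adjusted p = 0.000365), without overlap. Kcnip3, whose product is also the transcriptional repressor DREAM, went from 39.0, 44.3 and 61.1 CPM to 52.6, 59.2 and 66.9 CPM (0.38 ± 0.092, adjusted p = 0.00638). Kcnip1 rose by less (0.16 ± 0.045, adjusted p = 0.0135), and Kcnip4 was not called (-0.077 ± 0.083). None of the 3 tested Kvβ genes was called, with Kcnab2, the most abundant, at 0.032 ± 0.066. At an unadjusted p under 0.05, 1 of them passed, Kcnab3 (0.26 ± 0.10, edgeR adjusted p = 0.0830), and DESeq2 called 0.

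Kcne1l, also named Kcne5, encodes a small single-pass subunit that damps Kcnq and Kv channels, and had the second highest level per kilobase of all potassium channel genes in control. It rose from 53.6, 56.5 and 67.7 CPM to 81.1, 83.0 and 91.5 CPM, without overlap (log2 fold change 0.55 ± 0.052, edgeR adjusted p = 6.56e-07), and was called in all 21 alternative fits.

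Silent subunits form no channel alone and modify Kv2 channels when they join them. Kcng4 rose from 1.94, 2.37 and 3.84 CPM to 3.94, 4.64 and 5.63 CPM, the largest log2 fold change of the 80 genes (0.95 ± 0.14, edgeR adjusted p = 6.89e-05), at a mean of 109 counts. Kcng1 rose from 20.8, 23.3 and 29.6 CPM to 29.7, 31.3 and 35.1 CPM (0.43 ± 0.071, adjusted p = 0.000238). Neither gene overlapped between groups, and control replicate 1 was the highest control for both; without it the values were 1.07 ± 0.11 and 0.50 ± 0.051. Kcnf1 and Kcnv1 were also called higher (0.20 ± 0.059 and 0.21 ± 0.068), but these calls were lost in 6 and 10 of 21 alternative fits. Kcns3 fell (-0.54 ± 0.16, adjusted p = 0.0214) at a mean of 21.9 counts, with overlap between the groups and with the call lost in 5 of 21 alternative fits, among them those without control replicate 4, mimic replicate 1 or mimic replicate 6 (-0.49 in each). Kcns2 was not called (-0.072 ± 0.060). Kcnmb2, a BK subunit that inactivates the channel, fell from 2.83, 3.07 and 3.65 CPM to 1.93, 2.40 and 2.70 CPM (-0.42 ± 0.10, adjusted p = 0.00591), without overlap.

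Of 10 ratios between subunits that assemble in 1 complex or share a family, 2 did not overlap between the groups. The log2 ratio of Kcnd2 to Kcnd3 within a library went from -1.24, -1.17 and -1.14 to -1.41, -1.40 and -1.31, a shift of -0.20 without overlap. Kcna2 against its β subunit Kcnab2 shifted by 0.23, and there the nearest libraries of the 2 groups both lay at -0.48. Control replicates 1 and 2, at -1.03 and -0.84, carried most of that shift: without them, a setting chosen after seeing the data, it was 0.089, while that of Kcnd2 to Kcnd3 was -0.21. The other 8 ratios overlapped between groups, the largest shifts being 0.39 for Kcnn2 to Kcnn3 and -0.37 for Kcnd2 to Kcnip3. Without these 2 controls the shifts were 0.50 and -0.53. For both pairs the overlap came from control replicate 1 alone, at 0.353 and 0.347. For Kcnn2 to Kcnn3 the other controls lay at -0.343 to -0.129 and mimic at 0.117 to 0.447. For Kcnd2 to Kcnip3 they lay at 0.740 to 1.093 and mimic at 0.323 to 0.584. These ratios of counts are not per length and are given as a description.

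**Figure D4:**
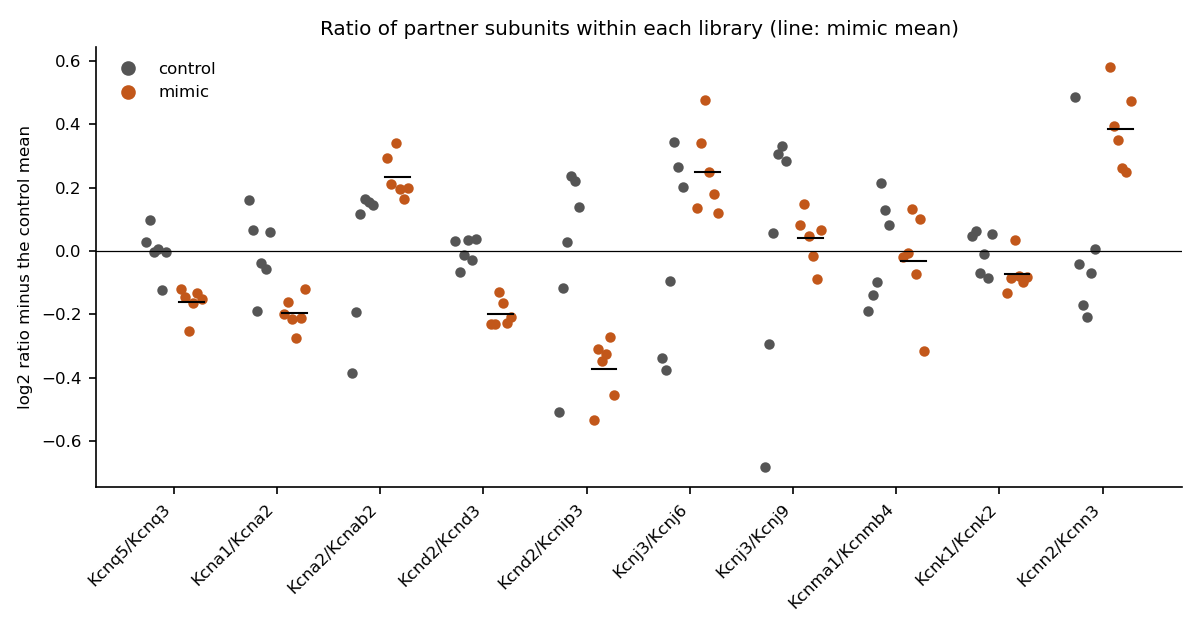
Log2 ratio of counts of partner subunits in each library, minus the mean of the control libraries (y axis), for 10 pairs, with control in grey, mimic in orange and a line at the mimic mean. Mimic lies below control for Kcnd2/Kcnd3 and above it for Kcna2/Kcnab2, where 4 of the 6 controls lie close to mimic and control replicates 1 and 2 lie far below.

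The share of inward rectifiers was larger in mimic, which Kcnj10 alone carried, and that of the Kcnk genes was smaller with or without Kcnj10. On the scale of CPM per kilobase, summed over the 80 genes, inward rectifiers made up 15.8% to 16.6% of the total in control libraries and 18.4% to 19.3% in mimic libraries. Kcnk genes made up 9.01% to 9.87% in control and 7.40% to 7.99% in mimic, Kcnh genes 3.69% to 4.37% and 3.54% to 3.60%, and Kcnb genes 1.62% to 1.77% and 1.48% to 1.58%. The shares of the other 6 subfamilies overlapped, with accessory genes at 26.2% to 28.8% and 28.5% to 29.5%. These are shares of 1 sum, so a gain in 1 subfamily lowers the others. With Kcnj10 left out of the whole sum, a setting chosen after seeing the data, inward rectifiers made up 9.83% to 10.3% in control and 9.87% to 10.5% in mimic, so that the groups overlapped. The Kcnh shares (3.95% to 4.69% and 3.89% to 3.99%) and the Kcnb shares (1.74% to 1.90% and 1.64% to 1.74%) then overlapped as well, the Kcnb groups at their edges. The Kcnk shares stayed apart, at 9.69% to 10.6% and 8.19% to 8.83%, and the accessory shares no longer overlapped, at 28.2% to 30.9% and 31.5% to 32.6%. No share was recomputed without Kcnk1 (33.2 CPM per kb in control) or Kcne1l (37.6 CPM per kb), the highest of these subfamilies. Of the 11 tested Kcnk genes, 2 were called higher and 2 lower, beside 11.5% and 10.7% of all tested genes. The smaller Kcnk share is therefore not a fall of each Kcnk gene. The CPM of all potassium channel genes summed to 3363 to 3634 in control and 3751 to 3919 in mimic. Leaving out Kcnj10, the sums were 3167 to 3412 and 3431 to 3579 CPM.

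**Figure D5:**
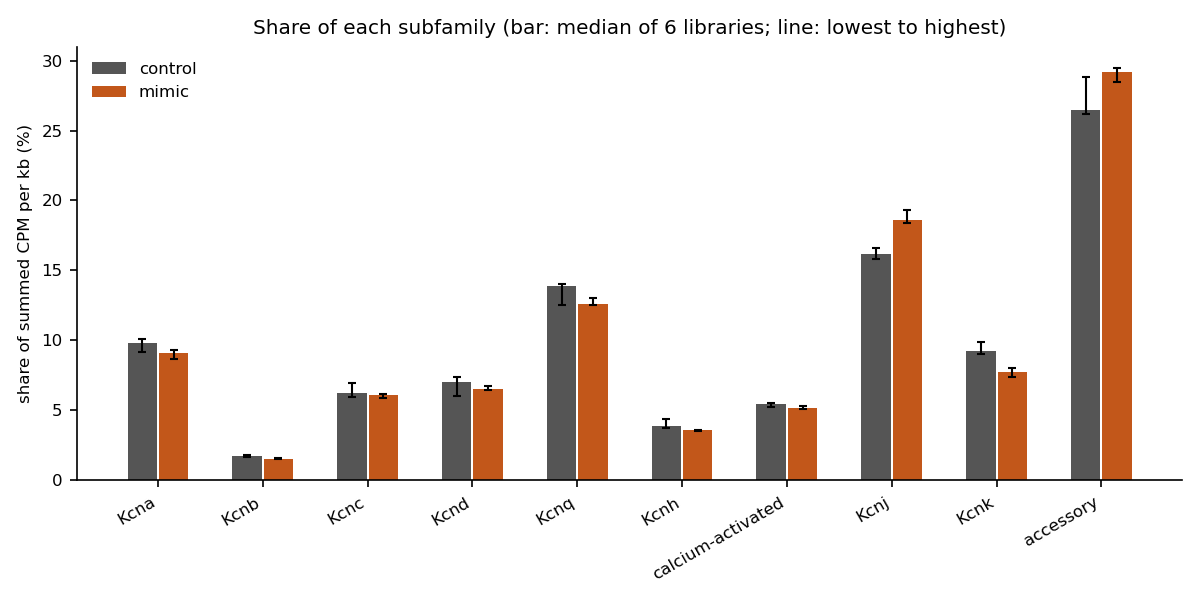
Share of summed CPM per kilobase (y axis, %, bars from 0) taken by each subfamily; bars are the median of 6 libraries and lines run from the lowest to the highest. The Kcnj bar is higher in mimic (18.6% against 16.2%), and the bars of Kcnk (7.72% against 9.21%), Kcnh (3.56% against 3.88%) and Kcnb (1.54% against 1.75%) are lower; without Kcnj10 only the Kcnk bar would stay lower without overlap between the groups.

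A microRNA recognises a transcript mainly by pairing of its seed, bases 2 to 8, with the 3′ untranslated region (UTR). The mimic and the negative control of the reagent list are shown with the seed in capitals, beside the RefSeq sequence of miR-152-3p, which shares the mimic's seed. The mimic has the same letters as mouse miR-148a-3p in RefSeq.
mimic: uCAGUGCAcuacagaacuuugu
miR-152-3p: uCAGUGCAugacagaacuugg
negative control: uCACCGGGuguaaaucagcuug

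The search covered TGCACTG and GCACTGA on the transcript strand, which overlap as the 8-base site TGCACTGA, in 1 UTR for each gene. Of the 80 tested potassium channel genes, 16 held a site (20.0%), against 21.9% of the 15072 tested genes with a UTR. A site was present in 1 of the 7 genes that fell (14.3%, against 33.5% of all genes that fell) and in 6 of the 21 that rose (28.6%, against 18.8%). An 8-base site was held by 2 genes, neither of them called, and those of Kcns2 are shown. The sites below are the 8-base sites of Kcns2, the site of Kcnh1, the only gene with a site that fell, those of Kcnd3 and Kcnc1, the 2 with the most counts among the 6 with a site that rose, and that of Kcnj16, which had the largest log2 fold change of the 6; each is read 5′ to 3′ on the transcript strand (GRCm38), with the match in capitals.
Kcns2, chr15:34841691-34841720, plus strand: tgttggatgaaTGCACTGAccatttaatgc
Kcns2, chr15:34841966-34841995, plus strand: ctgttcccagtTGCACTGAaggcaggggac
Kcnh1, chr1:192508059-192508088, plus strand: ctgtcatggcaTGCACTGggctggaggcaa
Kcnj16, chr11:111027832-111027861, plus strand: acagattctggTGCACTGtgtgttcataca
Kcnc1, chr7:46433224-46433253, plus strand: tcttcaaggaaTGCACTGtacgtgaaatgc
Kcnd3, chr3:105669314-105669343, plus strand: gttgcacccctaGCACTGAgacttgtgcct

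The seed of the negative control matched 8 of the 80 UTRs, against 4.42% of all tested genes with a UTR. Among the 21 genes that rose it matched 3, Kcnj10, Kcnd3 and Kcnip3 (14.3%, against 7.65% of all genes that rose). Among the 7 that fell it matched 1, Kcnk10 (14.3%, against 3.47% of all genes that fell). Of all tested genes with such a match, 23.6% were higher and 9.91% lower, against 13.5% and 12.6% of tested protein-coding genes. The part of the negative control in the changes of the channel genes was not tested. A match is a description of letters and was not tested as a site.

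Of 25 other tested genes of potassium handling, 5 rose and 4 fell, where 11.5% of all tested genes were higher and 10.7% lower. The 25 were partner proteins, BK γ subunits, sulphonylurea receptors, pumps and cotransporters. Counts in a group this small are given as a description and are no result about these genes as a group. The sodium-potassium pump subunit Atp1b2, known from astrocytes, rose (log2 fold change 0.31 ± 0.040, edgeR adjusted p = 2.29e-05). It went from 368, 379 and 426 CPM to 460, 485 and 494 CPM, without overlap. Atp1b1 was not called (-0.01 ± 0.034). Among cotransporters, the largest change was a fall of the potassium-chloride cotransporter Slc12a7 from 17.5, 19.7 and 20.5 CPM to 8.84, 10.7 and 12.3 CPM (-0.87 ± 0.075, adjusted p = 2.21e-07), and Slc12a9 also fell (-0.25 ± 0.079). The neuronal Slc12a5 was not called (-0.13 ± 0.052). Of the partner proteins, Amigo1, which accompanies Kv2 channels, and Lgi1, which acts on Kv1 channels, rose (0.16 ± 0.036 and 0.15 ± 0.047), whereas Cntn2, which clusters Kv1 channels along axons, fell (-0.32 ± 0.056). Lrrc38, a BK γ subunit, was called higher at a mean of 8.67 counts.

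Of 12 neuron markers, 1 was higher and 3 were lower, where 11.5% of all tested genes were higher and 10.7% lower. Their summed level was 8354 to 9139 CPM in control and 8092 to 8404 CPM in mimic, and 5 of the 6 mimic libraries lay below every control library. Excitatory neuron markers gave 0 higher and 3 lower of 8, microglia 0 and 2 of 10, endothelial cells 0 and 2 of 5, and mural and mesenchymal cells 1 and 2 of 9. Cldn5, a defining endothelial gene, had at most 1 count in any library. The part of cell composition in the changes of the channel genes was not tested.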

How the data were processed

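RNA of 6 control and 6 mimic samples was analysed, grouped by the labels. Per the labels, poly(A) RNA went into TruSeq libraries read from a single end over 50 bases. The authors aligned reads to mm10 with STAR 2.5.2b and counted them per gene with featureCounts of Subread 1.5.1 (versions from the submitters' processing notes); these deposited whole-number counts, not normalized, were the input here. Strand setting is not given in the sources used here, so overlapping genes can share reads: of the 80 tested members, 27 share exon positions with another gene. The authors' normalized table was not used.

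Symbols, coordinates and 3′ UTRs came from GENCODE M21 (GRCm38, the same build as mm10), which named 48349 of 48709 genes. Genes with at least 5 counts in 6 libraries were tested with edgeR 4.0.16 (R 4.3.3; TMM, robust quasi-likelihood, no covariate), with Benjamini-Hochberg adjustment over all 18847 genes; an adjusted p under 0.05 was called. The SE is the log2 fold change divided by the square root of F. The functions were tested on simulated data. Alternatives were DESeq2 1.42.0 (the study's tool), other factors and filters, a minimum fold change of 1.2, a replicate block and left-out libraries. Named members were those called, the highest per kilobase in each subfamily in control, and those with an 8-base mimic site; called genes of the other lists were added. Further members in the text were picked with their values in view. The members and lists were chosen with earlier results of these data known. The control sequence is the one in the study's reagent list, whereas the design text of the series names a siRNA. The values of 7 genes that entered the fits and counts are not reported here.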

Additional observations from a re-analysis of the deposited data

Results flagged for a closer look

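Dixon's criterion for 6 samples was applied to 34 named potassium channel genes in 2 groups each, which made 68 checks. In 8 of them the highest library lay far from the rest of its group. Chance gives about 1 in 20 in independent checks. These checks share the same libraries, so no excess over chance is read from them. In 6 of the 8 the library was control replicate 1. It measured 61.1 CPM for Kcnip3 (the next control 45.7), 29.6 CPM for Kcng1 (23.9), 33.2 CPM for Kcnn1 (27.1), 3.84 CPM for Kcng4 (2.46), 70.6 CPM for Kcnh3 (53.4) and 67.7 CPM for Kcne1l (58.6). Without control replicate 1 the log2 fold changes were 0.48 ± 0.061 for Kcnip3, 0.50 ± 0.051 for Kcng1, 0.26 ± 0.040 for Kcnn1, 1.07 ± 0.11 for Kcng4, 0.24 ± 0.041 for Kcnh3 and 0.59 ± 0.038 for Kcne1l. The other 2 were Kcnk6 in mimic replicate 2, at 0.711 CPM against 0.430 for the next library, and Kcnv1 in mimic replicate 3, at 50.3 CPM against 43.9. The causes were not tested.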

How the results depend on the processing

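Of the 28 called genes, Kcnj10, Kcnj16, Kcne1l and Kcng4 kept their call in all 21 alternatives, 20 (these 4 included) kept it in every alternative other than the minimum fold change of 1.2, and none reversed. With that minimum fold, 4 potassium channel genes were higher and 0 lower, and 0 and 1 of the other potassium genes. By other tools, DESeq2 called 20 higher and 7 lower. Scaled to the neuron markers, 26 were higher and 4 lower (2 lower among the other potassium genes); without a count filter, 19 and 4 (2 lower). With 1 library left out, 17 to 25 were higher and 4 to 9 lower (4 without mimic replicate 6); the other potassium genes gave 3 to 6 higher and 2 to 7 lower. Without control replicates 1 and 2, 26 were higher and 8 lower, with 7 of the other potassium genes lower.

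Scaled to the neuron markers, the median log2 fold change was 0.089 over all potassium channel genes, 0.097 for Kcna, 0.051 for Kcnb, 0.18 for Kcnc, 0.067 for Kcnd and 0.096 for Kcnq. It was 0.12 for Kcnq with filterByExpr. Without control replicates 1 and 2 it was -0.048 for Kcnd, 0.0039 for Kcnq and 0.015 for Kcnj. With 1 library left out the Kcna median ran from 0.023 to 0.091. The value of Kcnma1, near 0, changed sign to -0.0095 without control replicates 1 and 2. With 8-base sites only, 0 genes that rose and 0 that fell held a mimic site. With 1 library left out the ratio shifts ran from 0.16 to 0.27 for Kcna2/Kcnab2, -0.48 to -0.33 for Kcnd2/Kcnip3 and -0.097 to 0.11 for Kcnj3/Kcnj9. Without control replicates 1 and 2, a setting chosen after seeing the data for the ratios, they were 0.089 for Kcna2/Kcnab2, -0.53 for Kcnd2/Kcnip3, -0.20 for Kcnj3/Kcnj9, -0.14 for Kcna1/Kcna2 and 0.071 for Kcnj3/Kcnj6. The causes were not tested.

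With the replicate block, 21 potassium channel genes were higher and 5 lower; Kcna3, Kcnk1, Kcnk6 and Kcnf1 lost their call. Over all tested genes, same-numbered samples did not deviate together (correlations -0.034 to 0.078, none best with its own number). Such correlations cannot show whether samples were prepared in pairs, and the labels do not say. Depth limits the 22 members averaging under 100 counts, whose coefficient of variation over control libraries had a median of 19.8%, against 8.64% for the other 58.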
